A study of Mus musculus with 10 samples.

Results

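Genes that move zinc out of the cytosol or bind it there were examined by RNA-seq in mice lacking *Zip14* (WB-KO) and in WT mice, in libraries labelled proximal intestine. They are the zinc exporters *Slc30a1*, *Slc30a2*, *Slc30a4*, *Slc30a5*, *Slc30a6*, *Slc30a7* and *Slc30a10*, the metallothioneins *Mt1* and *Mt2*, and *Mtf1*, the zinc-sensing transcription factor. The 10 genes were chosen by name among 35275 counted Ensembl gene IDs, and all 10 passed the filter on low counts. In WB-KO mice *Slc30a1* rose 2.98-fold and *Slc30a5* and *Slc30a6* fell, *Slc30a2* was called lower in a test that held in only 1 of 10 fits with a mouse left out, and the other 6 genes, with both metallothioneins and *Mtf1* among them, did not pass the test, in a comparison that called 16.0% of all genes higher and 13.9% lower. Marker genes of all 5 WB-KO libraries went against the tissue label, with ileal markers high and the sum of proximal markers low, so that genotype and position along the gut cannot be told apart.

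The study asked how loss of the metal importer Zip14 (*Slc39a14*) changes gene expression in the intestine. Each of the 10 libraries came from a single mouse, 5 WT and 5 WB-KO, and the labels give an age of 8 to 10 weeks for all of them. The methods describe the knockout as a whole-body one, bred from heterozygous parents that also gave the WT controls. The sources differ on this point, because the series title names an enterocyte-specific *Zip14* deletion and the labels say KO only, so that the kind of deletion in the group called WB-KO here is in doubt. Neither sex nor litter was given per mouse.

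Zinc enters cells mainly through ZIP (*Slc39a*) proteins and leaves the cytosol through ZnT (*Slc30a*) proteins, which either carry it across the plasma membrane or load it into vesicles and the secretory pathway. Metallothioneins are small cysteine-rich proteins that bind zinc and copper, and in the intestine they hold zinc within the enterocyte. When zinc in the cell rises, the MTF-1 protein binds metal response elements (MREs) in the promoters of *Mt1*, *Mt2* and *Slc30a1* and raises their transcription. The ZnT proteins of the early secretory pathway, ZnT5, ZnT6 and ZnT7, supply zinc to enzymes such as alkaline phosphatase.

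MRE cores are shown first because they are the sequence feature that the metallothioneins and *Slc30a1* are known for. The core letters TGCACNC and TGCGCNC, where N is any base, were searched on both strands of RefSeq promoter windows of 300 bases, which run from 250 bases before the start of each gene to 50 after it (GRCm38.p6). All 10 genes had a window, and 7 of them held a match. *Mt2* had 4 matches, *Mt1*, *Slc30a4* and *Slc30a10* had 3 each, *Slc30a1* and *Slc30a2* had 2 each and *Slc30a5* had 1, while *Mtf1*, *Slc30a6* and *Slc30a7* had 0. In *Slc30a10* 2 of the matches, on opposite strands, overlap with an offset of 1 base. Of 32851 RefSeq promoter windows of this length, 25.7% held at least 1 match, 7.11% at least 2 and 1.97% at least 3. A match is only these letters in this window, and binding was not measured.

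The matches below are a selection, without those of *Mt1* at 3 and *Mt2* at 5 and without any of *Slc30a2*, *Slc30a4* and *Slc30a10*. They lie in promoters of genes induced by MTF-1 and, for contrast, of *Slc30a5*, 1 of the genes called lower. Each is written 5′ to 3′ on the strand of its gene in a window of 25 bases, with the core in capitals. A core on the opposite strand appears as its reverse complement. Position is that of the first core base from the RefSeq start.
*Mt1* at -23, chr8:94179057-94179081, plus strand: gtcccgctgTGCACACtggcgctcc
*Mt1* at 21, chr8:94179100-94179124, plus strand: cccgaaaagTGCGCTCggctctgcc
*Mt2* at -223, chr8:94172386-94172410, plus strand: catcgcctcTGCACCCggcccctcg
*Mt2* at -128, chr8:94172481-94172505, plus strand: cagacccttTGCGCTCagctccttt
*Mt2* at -50, chr8:94172559-94172583, plus strand, core on the opposite strand: ggggagggcGTGTGCAggctctgtc
*Slc30a1* at -43, chr1:191906729-191906753, plus strand, core on the opposite strand: gggggttccGAGTGCAaagcaaagt
*Slc30a1* at 31, chr1:191906802-191906826, plus strand, core on the opposite strand: ctccgggccGAGCGCAgtcgccgcg
*Slc30a5* at -48, chr13:100833460-100833484, minus strand, core on the opposite strand: tgtccaccaGCGCGCAggcgcagga
The windows depend on the start that is used. For *Mtf1* and *Slc30a2* the windows, chr4:124802299-124802598 and chr4:134343216-134343515, lie inside the GENCODE M21 genes, which start at chr4:124802104 and chr4:134343181. The *Mt2* window, chr8:94172368-94172667, ends just after the GENCODE M21 start at chr8:94172664. Matches at these other starts were not counted. The RefSeq start of *Mt1* lies at chr8:94179089, 152 bases before the start of transcript Mt1-202 in the GENCODE M21 annotation, and the 159 bases between the earliest and the latest annotated start hold 4 matches.

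The libraries differed in more than the deleted gene. They held between 16729787 and 20819678 counts in WT mice and between 17118742 and 19414828 in WB-KO mice. *Slc39a14* had between 190.8 and 356.8 CPM (counts scaled to the TMM-adjusted library size) in WT libraries, 160.1 CPM in WB-KO replicate 1 and between 78.5 and 93.8 CPM in the other WB-KO libraries. All 5 WB-KO libraries went against their tissue label by marker genes: the summed CPM of 5 ileal markers was between 3245 and 10499, against 199 to 237 in WT mice, and that of 6 markers of the proximal small intestine was between 34.5 and 797, against 3695 to 3986. In WT libraries most of the latter sum is *Lct*, the lactase gene, with 3363 to 3783 CPM in WT and 0.315 to 702 CPM in WB-KO libraries (edgeR adjusted p = 0.0632), while *Slc40a1* was at 20.6 and 32.6 CPM and *Cybrd1* at 9.52 and 7.64 CPM, both not called. All 5 ileal markers tested were higher in WB-KO mice and 2 of 5 tested proximal markers, *Gata4* and *Onecut2*, were lower, which bears on every comparison here. Among the WB-KO libraries, replicate 1 had the highest sum of proximal markers, the highest *Slc39a14* level and the highest sum of absorptive enterocyte markers. Across 15610 genes tested with edgeR's quasi-likelihood test, 16.0% were higher and 13.9% were lower in WB-KO mice at an adjusted p under 0.05, which makes 29.9% called in all, and 21.1% had no overlap between WT and WB-KO libraries.

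Of the 10 genes, 1 was higher and 3 were lower by this test (4 called), and in 3 the groups did not overlap. Beside them stand 16.0% higher, 13.9% lower, 29.9% called and 21.1% without overlap among all genes, so that the counts are read as a description of these genes only. The median log2 fold change was -0.10 over the 10 genes and 0.03 over all genes tested. At an unadjusted p under 0.05 there were 5 genes, the fifth being *Slc30a7*. In each of the 4 called genes, WB-KO replicate 1 was the WB-KO library nearest to the WT libraries.

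**Figure D1:**
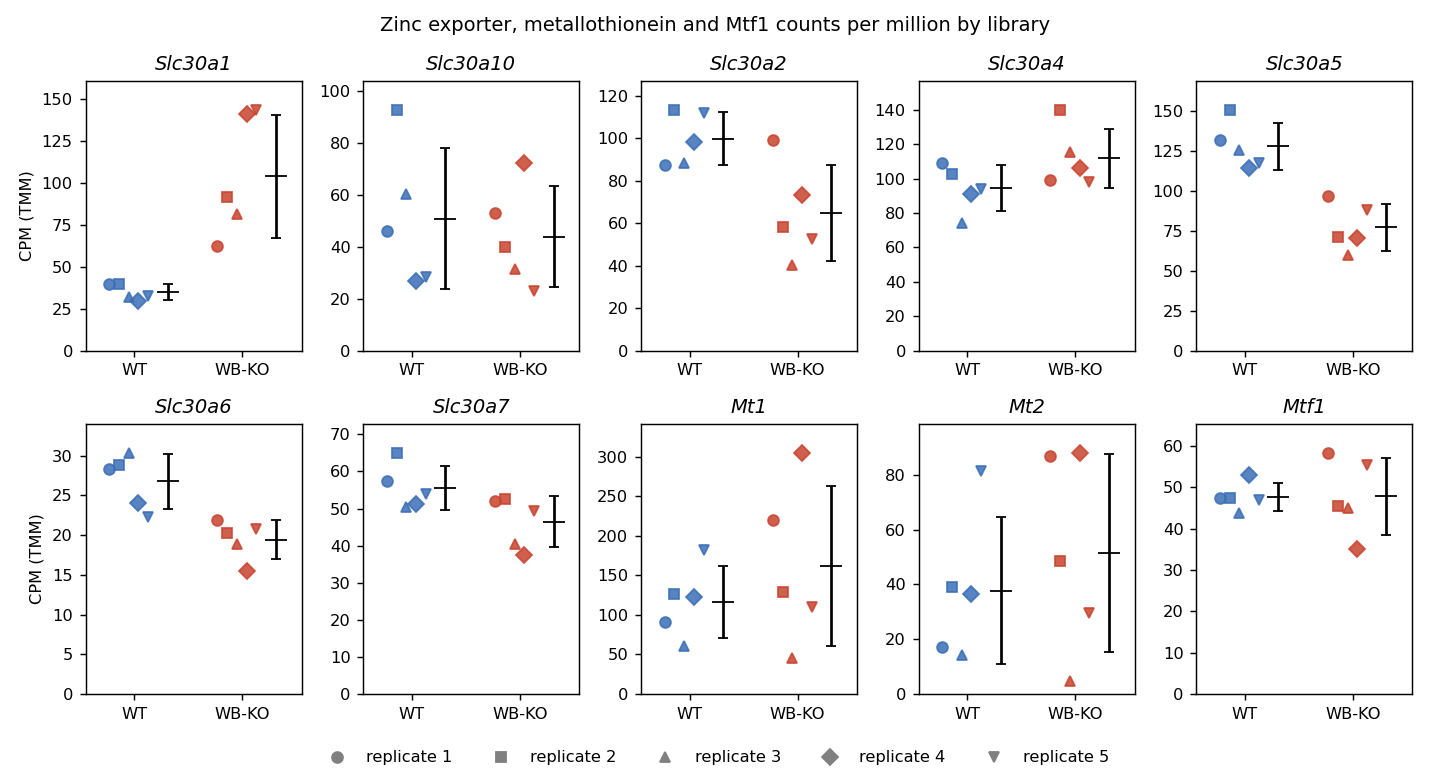
TMM-scaled CPM (vertical axes, each from 0) of the 10 genes in 5 WT (blue) and 5 WB-KO (red) libraries, 1 symbol shape per replicate number, with the mean and SD as black bars. *Slc30a1* separates upwards and *Slc30a5* and *Slc30a6* separate downwards in WB-KO mice, while *Mt1* and *Mt2* spread over a wide range in both groups.

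*Slc30a1* encodes ZnT1, the plasma membrane exporter that passes zinc from the enterocyte to the blood side. The gene (ENSMUSG00000037434, chr1:191906767-191913247, plus strand, GRCm38) had 39.9, 39.9, 32.0, 29.7 and 32.6 CPM in WT replicates 1 to 5 and 62.0, 91.3, 81.2, 141 and 143 CPM in WB-KO replicates 1 to 5. Every WB-KO library was above every WT library, with the lowest WB-KO value in replicate 1 and the highest values in replicates 4 and 5. The mean (± SD over 5 mice here and below) was 34.8 ± 4.76 CPM for WT and 104 ± 36.5 CPM for WB-KO, which is 1.58 as a log2 fold change (standard error 0.22, 95% interval 1.09 to 2.07, edgeR adjusted p = 0.000932). An exact permutation test over the 10 mice gave a two-sided p of 0.00794, the smallest that 5 against 5 allow. The log2 fold change stayed between 1.43 and 1.71, with adjusted p of at most 0.00418, when each mouse was left out in turn.

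The spread of *Slc30a1* was larger in WB-KO mice, where the highest library was 2.31 times the lowest, than in WT mice, where it was 1.34 times the lowest. The WB-KO libraries with the most *Slc30a1*, replicates 4 and 5, also had the highest sums of ileal markers, 10499 and 8992 CPM. The other WB-KO libraries did not keep this order. Replicate 2 had the lowest ileal sum, 3245 CPM, but more *Slc30a1* (91.3 CPM) than replicates 1 and 3 (62.0 and 81.2 CPM). The ileal sums of replicates 1 and 3 were 4101 and 6307 CPM. Smooth muscle markers were higher too, with 9 of 10 called and sums between 3598 and 10438 CPM in WB-KO mice against 1626 to 2659 CPM in WT mice, and none of these markers was at 0. The part of gut position or of smooth muscle in the *Slc30a1* difference was not tested. More cells of a type cannot be told apart from more RNA per cell in such tissue libraries. The antisense gene 1700034H15Rik overlaps *Slc30a1* and had 19 to 40 counts in WT and 26 to 44 in WB-KO libraries, against 541 to 2956 for *Slc30a1*.

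*Slc30a10* encodes ZnT10, a plasma membrane transporter best known as an exporter of manganese, which Zip14 also carries. The gene (ENSMUSG00000026614, chr1:185454848-185468762, plus strand) had 46.2, 92.8, 60.4, 26.9 and 28.3 CPM in the WT replicates and 53.2, 40.0, 31.5, 72.2 and 23.0 CPM in the WB-KO replicates. The groups overlapped over most of their range, and the highest WT library was 3.44 times the lowest. The log2 fold change was -0.21 (standard error 0.38, 95% interval -1.04 to 0.62, edgeR adjusted p = 0.698), an interval that holds a fall as well as a rise. Its sign turned to 0.12 without WT replicate 2, the highest library. The overlapping antisense gene Gm2061 had 21 to 64 counts in WT and 139 to 273 counts in WB-KO libraries, against 439 to 1515 for *Slc30a10*. Reads of the antisense gene and *Slc30a10* cannot be told apart without strand, and the part of such reads in the *Slc30a10* values was not tested.

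*Slc30a2* encodes ZnT2, which loads zinc into secretory vesicles and is known for the zinc-rich granules of Paneth cells. The gene (ENSMUSG00000028836, chr4:134343181-134354484, plus strand) had 87.5, 113, 88.3, 97.9 and 112 CPM in the WT replicates and 99.1, 58.4, 40.4, 73.0 and 52.6 CPM in the WB-KO replicates. In 4 WB-KO libraries the level was below all WT libraries, whereas WB-KO replicate 1 lay inside the WT range. The mean went from 99.7 ± 12.3 CPM to 64.7 ± 22.5 CPM, which is -0.62 as a log2 fold change (standard error 0.21, 95% interval -1.08 to -0.17, edgeR adjusted p = 0.0424).

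The call on *Slc30a2* depended on single mice. It was past the threshold in 1 of 10 fits with a mouse left out, the fit without WB-KO replicate 1 (log2 fold change -0.83, adjusted p = 0.00407), and in the other fits the adjusted p rose to as much as 0.0951, in the fit without WT replicate 2. With scaling to library size only, it was -0.51 with an adjusted p of 0.0652. Of 9 Paneth cell markers 0 were called by edgeR, and their summed CPM spanned 8389 to 26910 in WT and 8086 to 36246 in WB-KO libraries, where replicate 1 was at the top. None of the Paneth cell markers was at 0, and their part in the *Slc30a2* level was not tested.

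*Slc30a4* encodes ZnT4, a transporter of endosomal and secretory vesicles. The gene (ENSMUSG00000005802, chr2:122681233-122702663, minus strand) had 109, 103, 74.1, 91.2 and 94.2 CPM in the WT replicates and 99.4, 140, 116, 106 and 97.8 CPM in the WB-KO replicates. Only WB-KO replicates 2 and 3 were above all WT libraries. The log2 fold change was 0.25 (standard error 0.13, 95% interval -0.04 to 0.53, edgeR adjusted p = 0.167), and it differed in sign from that of *Slc30a2*, the other vesicle transporter. It changed to -0.07 when libraries were scaled to the counts of 10 pan-epithelial genes. That scaling shifts the median log2 fold change of all genes to -0.30. The overlapping antisense gene 4930417H01Rik had 15 to 26 counts in WT and 5 to 19 in WB-KO libraries, against at least 1271 for *Slc30a4*.

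*Slc30a5* encodes ZnT5, which pairs with ZnT6 to carry zinc into the early secretory pathway. The gene (ENSMUSG00000021629, chr13:100802648-100833427, minus strand) had 132, 151, 126, 114 and 117 CPM in the WT replicates and 96.7, 71.4, 59.7, 70.3 and 87.7 CPM in the WB-KO replicates. The groups did not overlap, and the gap between the lowest WT library and the highest WB-KO library, replicate 1, ran from 114 to 96.7 CPM. The mean went from 128 ± 14.5 CPM to 77.2 ± 14.8 CPM, which is -0.73 as a log2 fold change (standard error 0.14, 95% interval -1.02 to -0.43, edgeR adjusted p = 0.00353). The exact permutation test gave p = 0.00794, and the log2 fold change stayed between -0.82 and -0.66 when each mouse was left out, always past the threshold.

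*Slc30a6* encodes ZnT6, the partner of ZnT5 that does not itself move zinc. The gene (ENSMUSG00000024069, chr17:74395608-74424221, plus strand) had 28.3, 28.9, 30.3, 24.0 and 22.2 CPM in the WT replicates and 21.9, 20.2, 18.8, 15.5 and 20.8 CPM in the WB-KO replicates. The groups did not overlap, but WT replicate 5 and WB-KO replicate 1 nearly met at 22.2 and 21.9 CPM. The mean went from 26.8 ± 3.45 CPM to 19.5 ± 2.44 CPM, which is -0.46 as a log2 fold change (standard error 0.12, 95% interval -0.73 to -0.19, edgeR adjusted p = 0.0176). The call held in all 10 fits with a mouse left out, with an adjusted p of up to 0.0475 and log2 fold changes between -0.52 and -0.39.

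*Slc30a7* encodes ZnT7, which works as a homodimer in the same compartment. The gene (ENSMUSG00000054414, chr3:115938973-116007406, minus strand) had 57.5, 64.9, 50.5, 51.3 and 54.0 CPM in the WT replicates and 52.1, 52.6, 40.5, 37.6 and 49.4 CPM in the WB-KO replicates. In 3 WB-KO libraries the level was below all WT libraries. The log2 fold change of -0.26 (standard error 0.12, 95% interval -0.52 to -0.00265) missed the threshold after adjustment (edgeR adjusted p = 0.112), and the exact permutation test gave p = 0.0635. With scaling to the pan-epithelial genes, which shifts the median of all genes to -0.30, it was -0.60 with an edgeR adjusted p of 0.00395.

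Within the ZnT5 and ZnT6 pair, the log2 ratio of *Slc30a5* to *Slc30a6* CPM was 2.25 ± 0.14 in WT mice and 1.97 ± 0.22 in WB-KO mice. The difference of -0.28 had an exact permutation p of 0.0476, or 0.107 after adjustment over the 3 ratios compared, and it was past 0.05 before adjustment in 3 of 10 repeats with a mouse left out. A fall of *Slc30a5* larger than that of *Slc30a6* was thus not shown once the 3 ratios were counted.

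The intestinal alkaline phosphatases, which receive their zinc in the secretory pathway, were described next to these transporters. Of 4 alkaline phosphatase genes tested, 0 were higher and 2 were lower, with a median log2 fold change of -0.87, where 13.9% of all genes tested were lower. *Alpi*, the major brush border form, had 1374 ± 582 CPM in WT and 422 ± 123 CPM in WB-KO mice (log2 fold change -1.70, standard error 0.30, edgeR adjusted p = 0.00254). *Akp3*, a form of the proximal intestine, had a log2 fold change of -3.78 with a standard error of 1.28 and an adjusted p of 0.045, and its WT libraries ranged from 4.29 to 215 CPM. *Akp3* lost its call in 6 of 10 fits with a mouse left out, with adjusted p of up to 0.153. *Alpi* and *Akp3* are also genes of absorptive enterocytes, and 5 of 8 absorptive enterocyte markers were lower in WB-KO mice, with sums between 13226 and 30274 CPM against 30253 to 42605 CPM and none at 0. Their part in the *Slc30a5*, *Slc30a6*, *Alpi* and *Akp3* levels was not tested.

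**Figure D2:**
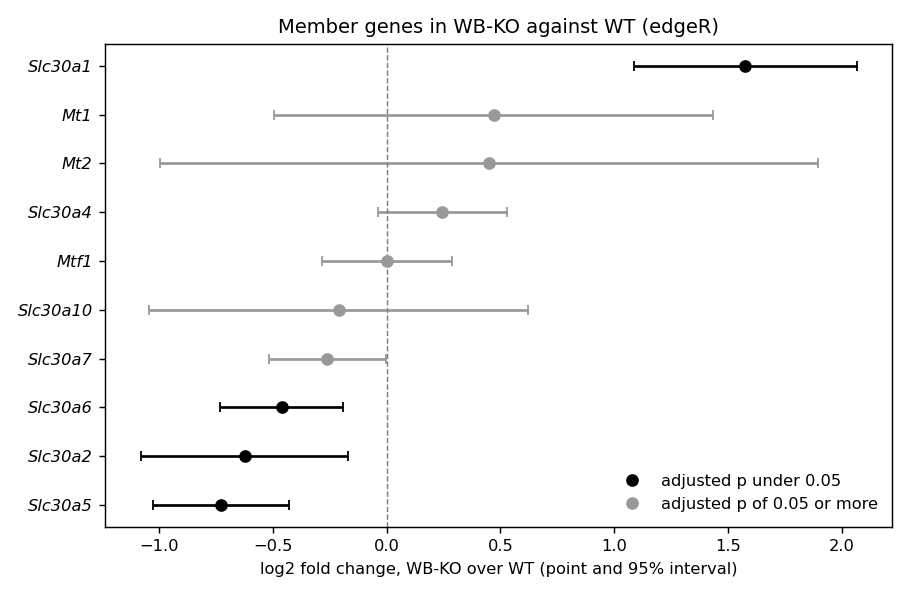
Log2 fold change of each gene in WB-KO over WT mice (horizontal axis; points are edgeR estimates and bars 95% intervals, n = 5 mice a group), black where the adjusted p was under 0.05. *Slc30a1* lies at 1.58 to the right of 0 and *Slc30a5*, *Slc30a2* and *Slc30a6* to its left, while the widest intervals are those of *Mt2*, *Mt1* and *Slc30a10*.

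*Mt1* and *Mt2* encode the metallothioneins that most tissues make, and they are induced by zinc, by glucocorticoids and in inflammation. The genes are neighbours on the plus strand of chromosome 8, *Mt2* (ENSMUSG00000031762) at chr8:94172664-94173568 and *Mt1* (ENSMUSG00000031765) at chr8:94179082-94180327, with 5513 bases between them. *Mt1* had 91.0, 126, 60.8, 123 and 183 CPM in the WT replicates and 220, 129, 45.6, 305 and 110 CPM in the WB-KO replicates. *Mt2* had 17.1, 39.1, 14.3, 36.3 and 81.6 CPM in the WT replicates and 86.8, 48.6, 4.70, 88.0 and 29.5 CPM in the WB-KO replicates. For both genes 2 WB-KO libraries, replicates 1 and 4, were above all WT libraries and 1, replicate 3, was below all of them.

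The mice of a group differed from each other by more than the groups did. The highest WB-KO library was 6.69 times the lowest for *Mt1* and 18.7 times for *Mt2*, and in WT mice it was 3.01 and 5.71 times the lowest. The means of *Mt1* were 117 ± 45.5 CPM (WT) and 162 ± 101 CPM (WB-KO), with a log2 fold change of 0.47 (standard error 0.44, 95% interval -0.49 to 1.44, edgeR adjusted p = 0.435). Those of *Mt2* were 37.7 ± 26.9 CPM and 51.5 ± 36.3 CPM, with a log2 fold change of 0.45 (standard error 0.66, 95% interval -0.996 to 1.90, edgeR adjusted p = 0.627). Both intervals run from a fall to a rise, so that 5 mice a group bound a change of the metallothioneins only loosely.

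The metallothioneins nevertheless moved together from mouse to mouse. In WT mice the order from low to high was replicate 3, 1, 4, 2, 5 for *Mt1* and for *Mt2*, and in WB-KO mice it was 3, 5, 2, 1, 4 for both. The log2 ratio of *Mt1* to *Mt2* was 1.82 ± 0.46 in WT and 1.94 ± 0.77 in WB-KO mice, and the difference of 0.12 had an exact permutation p of 0.802. The order of *Slc30a1* was a different one: WB-KO replicate 1 was second highest for *Mt1* and lowest for *Slc30a1*. The log2 ratio of *Slc30a1* to *Mt1* was -1.66 ± 0.63 in WT and -0.45 ± 1.08 in WB-KO mice, a difference of 1.22 with an exact permutation p of 0.0714 (0.107 adjusted over the 3 ratios). With each mouse left out in turn this difference ran from 0.90 (without WB-KO replicate 3, exact permutation p = 0.143) to 1.56 (without WB-KO replicate 1, exact permutation p = 0.0238), and the latter was the 1 repeat of 10 under 0.05 before adjustment over the ratios.

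**Figure D3:**
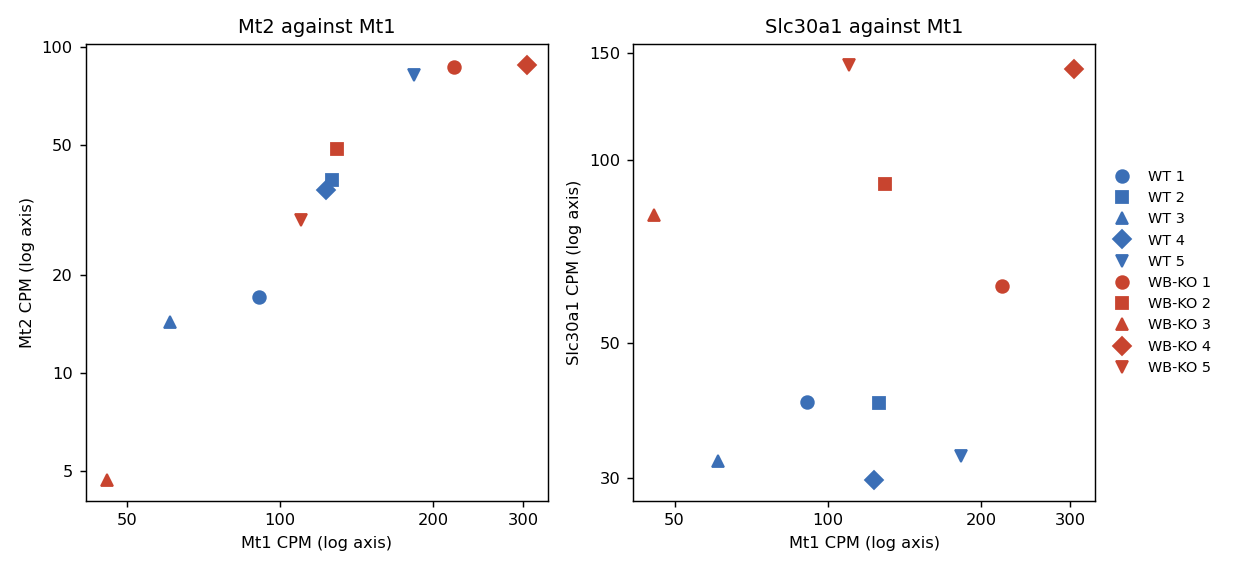
CPM of *Mt2* (left) and *Slc30a1* (right) against CPM of *Mt1*, all on log axes, with 1 point per library and the same symbols for replicate numbers in WT (blue) and WB-KO (red) mice. Within each group the libraries stand in the same order for *Mt2* as for *Mt1*, whereas the 5 WB-KO libraries lie above the 5 WT libraries in *Slc30a1* at low and at high *Mt1*.

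Other genes followed the metallothioneins across the 10 libraries. After the group mean was subtracted, the genes most like the mean log2 CPM of *Mt1* and *Mt2*, among 9751 genes with a mean of at least 10 CPM, were *Zfp422* (Pearson r 0.908), *Lsm1* (0.887) and *Sppl3* (0.873). These are the highest of many correlations over 10 points that share library scaling, and they are given as a description. Their levels in WT and WB-KO mice were 20.4 and 21.4 CPM for *Zfp422*, 18.6 and 19.7 CPM for *Lsm1* and 53.5 and 57.2 CPM for *Sppl3*.

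*Mtf1* (ENSMUSG00000028890, chr4:124802104-124849800, plus strand) encodes the regulator itself, whose activity is set mainly by zinc binding to the protein. It had 47.4, 47.5, 43.9, 53.1 and 46.9 CPM in the WT replicates and 58.3, 45.4, 45.0, 35.1 and 55.5 CPM in the WB-KO replicates. The means, 47.7 ± 3.34 CPM and 47.8 ± 9.28 CPM, gave a log2 fold change of 0.00283 (standard error 0.13, 95% interval -0.28 to 0.29, edgeR adjusted p = 0.990). The spread was wider in WB-KO mice, where replicates 1 and 5 were above and replicate 4 below all WT libraries. The overlapping antisense gene 1110065P20Rik had 43 to 88 counts in WT and 66 to 98 in WB-KO libraries, against at least 736 for *Mtf1*. The sign is not defined by these data, and with scaling to the pan-epithelial genes, which shifts the median of all genes to -0.30, the log2 fold change was -0.35 with an adjusted p of 0.0199.

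Levels were compared between genes per kilobase of the principal transcript. In WT mice *Mt1* was highest at 213 CPM per kb, followed by *Mt2* at 73.8, *Slc30a5* at 40.2 and *Slc30a2* at 31.6 CPM per kb. Then came *Slc30a4* at 17.3, *Slc30a6* at 12.5, *Slc30a10* at 8.73, *Slc30a1* at 6.64, *Mtf1* at 6.26 and *Slc30a7* at 6.17 CPM per kb. Of neighbours in this order, the only ones whose WT libraries did not overlap were *Slc30a2* and *Slc30a4*. Overlap here compares ranges over mice, not genes within the same library. Within each library *Mt1* CPM was above *Mt2* CPM, with log2 ratios of at least 1.16 in WT and 1.34 in WB-KO mice. In WB-KO mice *Slc30a1* moved from rank 8 to rank 6 at 19.8 CPM per kb, beside *Slc30a2* and *Slc30a4*, both at 20.5, and the only neighbours without overlap were *Slc30a1* and *Slc30a6*, the latter at 9.06 CPM per kb. *Slc30a5* kept rank 3 at 24.3 CPM per kb. The transcript lengths are those of the annotation, and the isoforms used in these libraries were not measured.

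**Figure D4:**
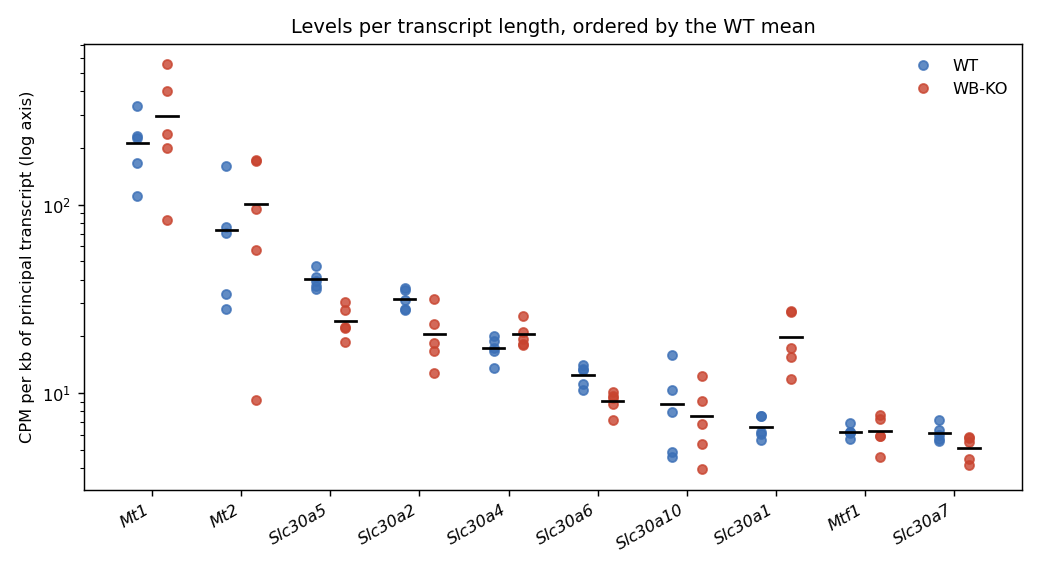
Level of each gene per kilobase of its principal transcript (vertical axis, log scale, CPM per kb) in WT (blue) and WB-KO (red) mice, ordered by the WT mean, with 1 point per library and a bar at the mean. *Slc30a1*, at 6.64 CPM per kb in WT mice, sits at 19.8 CPM per kb in WB-KO mice, level with *Slc30a2* and *Slc30a4*.

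The rest of the ZnT and metallothionein families had few counts in these libraries, apart from *Slc30a9*. Of *Slc30a3*, *Slc30a8*, *Slc30a9*, *Mt3* and *Mt4*, 2 passed the filter on low counts, and *Slc30a8*, the zinc transporter of insulin granules, had 0 counts in every library. *Mt3*, a metallothionein best known from neurons, rose from 0.703 ± 0.303 CPM to 3.09 ± 1.85 CPM (log2 fold change 2.12, standard error 0.48, edgeR adjusted p = 0.00896). Markers of enteric neurons and glia were higher as well, 6 of 6 called and none at 0, with sums between 21.5 and 70.7 CPM in WB-KO mice against 8.74 to 19.0 CPM in WT mice, and their part in *Mt3* was not tested. *Slc30a9*, a transporter of mitochondria, fell from 70.4 ± 5.50 CPM to 56.8 ± 6.28 CPM (log2 fold change -0.31, edgeR adjusted p = 0.0313), a call that was lost in 6 of 10 fits with a mouse left out and with scaling to library size only.

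Of 14 ZIP importers, 13 were tested, 1 was higher and 3 were lower, with a median log2 fold change of 0.06, beside 16.0% higher and 13.9% lower among all genes tested. *Slc39a14* itself was the lowest by adjusted p (log2 fold change -1.35, standard error 0.22, edgeR adjusted p = 0.00184). *Slc39a7*, which releases zinc from the endoplasmic reticulum, went from 1.65 to 0.636 CPM (log2 fold change -1.36, edgeR adjusted p = 0.0152). This rests on few reads, with 0.934 to 2.17 CPM in WT and 0.238 to 0.892 CPM in WB-KO libraries. *Slc39a9* went from 171 to 131 CPM (log2 fold change -0.38, edgeR adjusted p = 0.04), a call lost in 7 of 10 fits with a mouse left out. *Slc39a6* was the higher one, at 7.02 and 10.0 CPM (log2 fold change 0.52, adjusted p = 0.0369), and it lost its call in 8 of 10 fits with a mouse left out. *Slc39a4*, the main importer of dietary zinc at the apical membrane, had 250.1 ± 23.9 CPM in WT and 283 ± 41.7 CPM in WB-KO mice, with a log2 fold change of 0.18 and an adjusted p of 0.286 by edgeR.

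Further genes named as MTF-1 targets were counted in the same way, without regard to whether MTF-1 raises or lowers each of them. Of 6 such genes, 1 was higher and 0 were lower, with a median log2 fold change of 0.20, and 1 in 6 is close to the 16.0% higher among all genes tested. The higher gene, *Csrp1*, which encodes a protein of the smooth muscle cytoskeleton, had 145 ± 29.5 CPM in WT and 379 ± 132 CPM in WB-KO mice (log2 fold change 1.38, standard error 0.23, edgeR adjusted p = 0.00188). It rose together with the smooth muscle markers described above, whose median log2 fold change was 1.45, and the part of smooth muscle in its level was not tested. *Slc39a10*, *Gclc*, *Ndrg1*, *Slc40a1* and *Selenow* were not called, with log2 fold changes between -0.51 for *Ndrg1* and 0.66 for *Slc40a1*.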

How the data were processed

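RNA-seq libraries of 5 WT and 5 WB-KO mice, 1 per mouse, were used. The authors deposited raw read counts per Ensembl gene ID for each library, without normalization. The submitters' processing notes list FastQC 0.11.9, Trimmomatic, HISAT2 2.0.4, SAMtools 1.3.1 and DESeq2 1.14.1 with GRCm38 and mm10, while no counter, annotation, strand setting or rule for multiply mapped reads is named: each is not given in the sources used here. Reads of overlapping genes, and reads of near-identical copies such as metallothionein genes, may therefore have been shared or lost. The total was between 16729787 and 20819678 counts per library.

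Symbols, positions and transcript lengths came from GENCODE M21 (GRCm38), which named 34490 of 35275 IDs, and promoter windows from RefSeq. Counts were fitted with edgeR 4.0.16 (R 4.3.3, limma 3.58.1): filterByExpr (minimum count 10, minimum total 15), TMM, a quasi-likelihood test of WB-KO against WT, and Benjamini-Hochberg adjustment over 15610 genes with a threshold of 0.05. CPM are TMM-scaled. Ratios used log2 CPM with a prior count of 2 and exact two-sided permutation tests over all splits of 5 against 5 (Python 3.11.15).

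Alternatives were RLE, library size only, scaling to pan-epithelial genes, DESeq2 1.42.0, other filters, a robust fit, a replicate block and leaving out each mouse. The 10 genes, the gene lists and the rule for named genes (all 10, *Slc39a14*, of each list at most 4 called genes by adjusted p and at most 3 abundant markers, and the 3 genes most like the metallothioneins) were chosen with earlier results of these data known. *Slc39a4* and the uncalled genes of lists were named beyond that rule, after their values were seen. The lists were described by counts without a set test, and edgeR p-values were adjusted over all genes tested, those of the ratios over the 3 ratios, and the exact permutation p-values of single genes were not adjusted.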

Additional observations from a re-analysis of the deposited data

Results flagged for a closer look

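A sample standing apart from the other 4 of its group was looked for with Dixon's test in 92 groups of 5 values: the 10 genes and 3 ratios (26 groups), 22 other named genes and 11 marker sums, each in WT and in WB-KO mice. It was found in 5 groups, where chance flags about 1 in 20, or 4.6, and in 0 of the 26 groups of the 10 genes and 3 ratios. WB-KO replicate 1 stood apart in 3 of the 5: it had 160.1 CPM of *Slc39a14* (78.5 to 93.8 CPM in the others of its group), a summed 30274 CPM of absorptive enterocyte markers (13226 to 17616 CPM in the others) and 4.56 CPM of *Ghrl* (1.05 to 1.73 CPM in the others). WT replicate 2 had 45.4 CPM of *Fkbp5*, against 14.7 to 17.4 CPM in the other WT libraries. WB-KO replicate 4 had 178 CPM of *Txnrd1*, where the rest of its group had 238 to 262 CPM.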

How the results depend on the processing

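Across 18 other settings (normalization, tool, filter, dispersion, block, and each of 10 mice left out), the 10 genes gave 180 values: 155 kept direction and side of the threshold, 10 lost the call, 14 changed sign, and 1 gained a call in the same direction (*Slc30a7* with pan-epithelial scaling). Of the 14, *Mtf1* with pan-epithelial scaling also gained a call (adjusted p = 0.0199). *Slc30a1* was the 1 higher gene in every setting. Lower genes were 3 in the main analysis, 5 with scaling to pan-epithelial genes (*Slc30a7*, -0.60, and *Mtf1* joined) and 2 to 3 with a mouse left out, 3 only without WB-KO replicate 1. *Slc30a2* was -0.51 with library size only. The sign of *Mtf1* turned to -0.00656 with RLE, -0.35 with pan-epithelial scaling, -0.0105 with DESeq2, -0.0154 with no filter, -7.71e-05 with a mean count of at least 10 and -0.0155 with the replicate block. *Slc30a4* turned to -0.0675 with pan-epithelial scaling. Calls that were higher made up 53.5% in the main analysis, 69.4% with library size only and 13.4% with pan-epithelial scaling, where the median log2 fold change of all genes was 0.03, 0.15 and -0.30.

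With a mouse left out, log2 fold changes ranged from -0.0801 to 0.0975 for *Mtf1*, -0.83 to -0.50 for *Slc30a2*, -0.46 to 0.12 for *Slc30a10*, 0.11 to 0.70 for *Mt1*, 0.17 to 0.95 for *Mt2*, 0.14 to 0.30 for *Slc30a4* and -0.32 to -0.19 for *Slc30a7*. The log2 ratio differences ranged from -0.21 to 0.27 for *Mt1* to *Mt2*, -0.33 to -0.20 for *Slc30a5* to *Slc30a6* and 0.90 to 1.56 for *Slc30a1* to *Mt1*, and a prior count of 0.5 changed none of their calls. The causes were not tested.

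Among the lists, library size only gave 4 higher ZIP importers, 0 lower other ZnT and metallothionein genes, 1 higher NRF2 target and 2 higher leukocyte markers. DESeq2 gave 1 lower MTF-1 target, 2 higher glucocorticoid targets, 1 higher Paneth cell marker, 1 higher and 1 lower leukocyte marker and 4 lower proximal markers. With a mouse left out, higher genes ranged from 0 to 1 for ZIP importers, NRF2 targets, Paneth cell and enteroendocrine markers, 0 to 2 for glucocorticoid targets and leukocyte markers, and 3 to 6 for neuron and glia markers. Lower genes ranged from 0 to 1 for other ZnT and metallothionein genes, glucocorticoid targets, pan-epithelial and leukocyte markers, 0 to 2 for MTF-1 targets, 1 to 2 for alkaline phosphatases and 2 to 4 for proximal markers.

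Mice of the 2 groups share replicate numbers in the labels, which do not state that the numbers pair the mice. Correlations of the deviations of same-numbered mice were between -0.167 and 0.177, and only number 4 matched its own best. Such correlations cannot decide whether same-numbered mice shared a litter or a processing step. With the replicate block, 1950 genes were higher and 1898 lower in place of 2491 and 2169, 1 of the 10 genes was higher (*Slc30a1*, 1.51) and 3 were lower, and 1 alkaline phosphatase was lower. No gene of the 10 was below the filter, so that the separate test planned for such genes gave no value. The lowest count of any of the 10 genes in a library was 87 (*Mt2*), and the widest intervals were those of *Mt1*, *Mt2* and *Slc30a10*, whose libraries also spread most within a group.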

Other observations

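Gene groups that respond to other inducers of metallothioneins, and the remaining cell types, were described by counts beside the 16.0% higher and 13.9% lower genes of the whole comparison. Of 6 glucocorticoid targets, 1 was higher (*Fkbp5*, a co-chaperone of the glucocorticoid receptor, log2 fold change 1.05, edgeR adjusted p = 0.0404, lost in 8 of 10 fits with a mouse left out) and 0 were lower. Of 7 targets of NRF2, the regulator of the oxidative stress response, 0 were higher and 3 were lower: *Gclm*, an enzyme subunit of glutathione synthesis, went from 158 ± 19.7 to 84.8 ± 18.1 CPM (SD, n = 5 each), *Nqo1* from 51.5 ± 15.04 to 23.9 ± 4.06 CPM and *Txnrd1* from 371 ± 71.3 to 235 ± 32.6 CPM. Of 6 STAT3 targets, 2 were higher and 1 was lower. *Saa1*, an acute phase protein, had between 0.0583 and 0.623 CPM in WT libraries and between 3.61 and 279 CPM in WB-KO libraries, *Il4ra* went from 71.0 ± 3.06 to 87.9 ± 7.54 CPM, and *Socs3*, a feedback inhibitor of STAT3, from 81.0 ± 25.7 to 40.2 ± 10.1 CPM.

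Of 6 goblet cell markers, 4 were higher, and of 7 enteroendocrine markers 1 was higher and 6 were lower, with *Cck*, *Ghrl* and *Gip* at log2 fold changes of -2.90, -3.41 and -3.83. Of 10 pan-epithelial genes, 7 were higher and 0 were lower. Of 7 leukocyte markers 0 were called, with sums between 1007 and 1622 CPM in WT and between 647 and 1649 CPM in WB-KO libraries. Of 8 genes of the exocrine pancreas 2 passed the filter and 0 were called by edgeR.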
